A study of Mus musculus with 11 samples.

Results

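The semaphorins, plexins and neuropilins are a guidance ligand and receptor system, and 31 of the 39017 genes counted in mouse brain belong to it here. The members were chosen by gene symbol: 20 semaphorins (7 secreted ones of class 3 and 13 membrane-bound ones of classes 4 to 7), 9 plexins and 2 neuropilins. The family as a whole was chosen from earlier results on these same libraries, so its counts of changed genes describe the libraries and are not independent evidence. All 31 members passed the filter on low counts of the edgeR fits in both tissues.

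RNA was sequenced from the neocortex and from the CA1 field of the hippocampus of mice aged 13 to 14 weeks. Knockout (KO) mice carried the Camk2a-Cre transgene, whose promoter is active in excitatory neurons of the forebrain, and 2 floxed alleles of Dicer, the RNase that matures most miRNAs. The neocortex gave 3 KO libraries (animals D5130, D5132 and D5133) and 3 control libraries (D5129, D5134 and D5135), and every one of these animals was male. From the CA1 came 2 KO libraries (males D5130 and D5133) and 3 control libraries (males D5134 and D5135 and the female D5138). The genotype of the control mice is not in the labels. Glia, vessels and interneurons are in the dissected tissue but are not the cells in which this Cre is known to act. Because the tissue was sequenced in bulk, fewer cells of a type and less RNA per cell cannot be told apart.

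Gene reads numbered 43144097 to 58329441 per neocortex library and 24806581 to 35684618 per CA1 library. Members took 0.185% to 0.188% of them in neocortex KO libraries and 0.161% to 0.172% in controls, and 0.21% to 0.214% in CA1 KO libraries and 0.192% to 0.199% in controls. Dicer1 itself, counted over the whole gene, stood at -0.04 log2 in the neocortex KO (edgeR adjusted p = 0.797) and -0.003 log2 in the CA1 (edgeR adjusted p = 0.988), and a count over the whole gene is no check of the floxed exon or of the labels. One animal stood apart on the Y chromosome: the sum of Ddx3y, Eif2s3y, Kdm5d and Uty in the control D5134 was 69.5 CPM (reads scaled to a fixed library total) in the neocortex and 74.0 CPM in the CA1, against 154 to 188 CPM and 161 to 180.4 CPM in the other libraries labelled male. Xist stood at 21.1 CPM in the CA1 KO library D5133, against at most 3.21 CPM in the other CA1 libraries labelled male and 602 CPM in the female D5138. By their spike-in RNAs the neocortex libraries formed set 1 (KO D5130 and D5132, control D5129) and set 2 (KO D5133, controls D5134 and D5135). The results below are therefore also given without D5133, D5134 and D5138 and within these sets.

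Semaphorins are cues that repel or attract growing axons and, in the adult brain, act on dendritic spines, synapses, vessels and glia. Plexins are their transmembrane receptors and carry an intracellular domain that acts on small GTPases of the Ras and Rap families. Most class 3 semaphorins bind a neuropilin, which lacks a signalling domain of its own and pairs with a plexin of the A group, whereas membrane semaphorins bind plexins directly.

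Dicer loss stops the maturation of miRNAs, which bind mRNAs mainly by their seed, bases 2 to 8. The first 4 miRNAs below each had matches in 3 of the 10 members that passed the test in a tissue, more than any other family searched. The last 2 are those matched in Plxnb2 and Sema3g, which held no other match. The seed is in capitals (RefSeq, GRCm38.p6).
mmu-let-7a-5p: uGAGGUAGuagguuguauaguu
mmu-miR-30a-5p: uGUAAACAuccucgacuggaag
mmu-miR-218-5p: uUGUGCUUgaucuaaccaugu
mmu-miR-125a-5p: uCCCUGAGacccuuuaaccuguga
mmu-miR-138-5p: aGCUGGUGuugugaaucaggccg
mmu-miR-101a-3p: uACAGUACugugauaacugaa

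A match was an 8mer in an annotated 3′ UTR (GENCODE M21, GRCm38), the reverse complement of the seed followed by A, searched on the transcript's own strand only. For each gene the protein-coding transcript with the longest annotated 3′ UTR was searched, and it can end elsewhere than the counted gene. The letters were CTACCTCA for let-7a, TGTTTACA for miR-30a, AAGCACAA for miR-218, CTCAGGGA for miR-125a, CACCAGCA for miR-138 and GTACTGTA for miR-101a. These occurred in 3.1%, 6.9%, 3.9%, 4.7%, 4.3% and 3.0% of the 20460 genes with a 3′ UTR. Below are 24 bases of the transcript strand ending in the match, which is in capitals, for the members that passed the test in a tissue. They show which letters each called member holds for these seeds, and each is a match of letters, not a measured binding site.
Plxnc1, let-7a, chr10:94791275-94791298, minus strand: gtatactatttctaacCTACCTCA
Plxnd1, let-7a, chr6:115955369-115955392, minus strand: gccatatcccagaacaCTACCTCA
Sema4g, let-7a, chr19:45003047-45003070, plus strand: ggctcccatccctgtcCTACCTCA
Plxna1, miR-30a, chr6:89317240-89317263, minus strand: agcactttagcatttcTGTTTACA
Plxna2, miR-30a, chr1:194813236-194813259, plus strand: aaaagaaaacaaacacTGTTTACA
Plxnc1, miR-30a, chr10:94792932-94792955, minus strand: ttgcaaacagcctcctTGTTTACA
Plxna4, miR-218, chr6:32146787-32146810, minus strand: caggtcaattcccaggAAGCACAA
Plxnb1, miR-218, chr9:109118796-109118819, plus strand: cagaaaggagaacttaAAGCACAA
Plxnc1, miR-218, chr10:94792871-94792894, minus strand: actacagtctccacttAAGCACAA
Plxna1, miR-125a, chr6:89317718-89317741, minus strand: ggggcaggtacaaggaCTCAGGGA
Plxna2, miR-125a, chr1:194813602-194813625, plus strand: attcaactggtaagccCTCAGGGA
Plxnb1, miR-125a, chr9:109118809-109118832, plus strand: ttaaagcacaataaggCTCAGGGA
Plxnb2, miR-138, chr15:89156049-89156072, minus strand: cagctccttccaatggCACCAGCA
Plxnb2, miR-138, chr15:89155939-89155962, minus strand: gcctccccttcccacgCACCAGCA
Sema3g, miR-101a, chr14:31230133-31230156, plus strand: tgccaccttgcccacgGTACTGTA

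Across 21 brain miRNA families, 22 of 31 members held at least 1 such 8mer (71.0%), against 45.7% of genes with a 3′ UTR. The members' UTRs were also longer, with a median of 1400 bases against 972, and held 0.886 matches per kilobase against 0.61. They occurred in 8 of 11 receptors and 14 of 20 ligands. Plxna3, which passed the test in both tissues, held none, and neither did Plxnb3 or Nrp1. Each of these genes did hold 1 stretch that matched a seed without the A, which is not counted as a match here. For Nrp1 only 549 bases were searched, and the annotated gene ends at 128503363, before the end of the counted one at 128505462. Plxnc1 held matches of let-7a, miR-30a and miR-218 together. The same seeds matched members that did not pass: let-7a also Sema4c, Sema4f and Nrp2, miR-30a also Sema3a, Sema6b and Sema6d, miR-125a also Sema4b, Sema4c and Sema4d, and miR-218 also Sema6b. By role, let-7a, miR-30a and miR-125a each matched 3 receptors and 3 ligands, and miR-218 matched 3 receptors and 1 ligand. The other families searched, each with its letters and the share of genes that hold them, were miR-9 (ACCAAAGA, 4.2%), miR-128 (CACTGTGA, 5.2%), miR-29a (TGGTGCTA, 2.8%), miR-26a (TACTTGAA, 4.2%), miR-181a (TGAATGTA, 5.3%), miR-132 (GACTGTTA, 2.4%), miR-137 (AGCAATAA, 4.1%), miR-27a (ACTGTGAA, 6.0%), miR-25 (GTGCAATA, 2.3%), miR-17 (GCACTTTA, 3.6%), miR-15a (TGCTGCTA, 4.0%), miR-153 (CTATGCAA, 2.4%), miR-135a (AAGCCATA, 3.0%), miR-23a (AATGTGAA, 6.3%) and miR-221 (ATGTAGCA, 3.4%). The letters of miR-128 and miR-27a overlap by 7, so 1 stretch can match both. No sequence of miR-124 was used here.

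Most of the system's transcripts came from a few members. For levels, CPM scaled by TMM (edgeR's library scaling) was divided by the summed exon length in kilobases. The membrane ligand Sema7a, which is anchored by a lipid and binds Plxnc1 and integrins, was the highest of the 31 in both tissues. It stood at 81.1 ± 6.83 CPM per kilobase in neocortex KO and 75.3 ± 9.08 in neocortex control libraries (SD, n = 3 each). In the CA1 it stood at 41.05 ± 3.55 in KO libraries (SD, n = 2) and 43.1 ± 1.64 in control libraries (SD, n = 3). Sema6b, a transmembrane ligand of A plexins, came next, at 29.8 ± 1.54 CPM per kilobase in neocortex KO and 31.4 ± 0.564 in neocortex control libraries (SD, n = 3 each). In the CA1, Sema6b was at 40.6 ± 3.69 in KO (SD, n = 2) and 38.3 ± 1.72 in control libraries (SD, n = 3). Neither ligand passed the test in either tissue.

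The secreted ligands were low by comparison. By summed exon length the highest was Sema3c in the neocortex, at 4.04 ± 0.416 CPM per kilobase in KO and 4.02 ± 0.0247 in control libraries (SD, n = 3 each). In the CA1 it was Sema3e, which binds Plxnd1 without a neuropilin, at 7.06 ± 0.56 in KO (SD, n = 2) and 8.34 ± 0.69 in control libraries (SD, n = 3). Sema3e in the neocortex was at 3.58 in KO and 3.44 in control libraries, and Sema3c in the CA1 at 3.495 in KO and 3.595 in control libraries. The lowest member was Sema3b in the neocortex, at 0.522 CPM per kilobase in KO and 0.540 in control libraries, and in the CA1 it was Sema3a, the archetypal axon repellent, at 0.275 in KO and 0.353 in control libraries.

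Among the plexins, Plxnd1 and Plxna1 were the highest in the neocortex. Plxnd1 stood at 18.9 ± 1.34 CPM per kilobase in KO and 16.7 ± 1.48 in control libraries, and Plxna1 at 19.3 ± 0.678 in KO and 15.0 ± 0.882 in control libraries (SD, n = 3 each). In the CA1 the highest were Plxna1, at 26.6 in KO and 25.5 in control libraries, and Plxnb1, at 17.6 in KO and 14.7 in control libraries. The CA1 kit did not mark strand, and Plxna1 shares 970 exon bases with the antisense gene Gm26811, which was counted at 37.4 CPM there and at 0.007 CPM in the stranded neocortex libraries, so the CA1 count of Plxna1 is uncertain. The co-receptor Nrp1 stood at 3.54 ± 0.544 CPM per kilobase in neocortex KO and 3.24 ± 0.0516 in neocortex control libraries (SD, n = 3 each), and at 11.8 in CA1 KO and 11.9 in CA1 control libraries. Nrp2 stood at 1.65 in neocortex KO and 1.545 in neocortex control libraries, and at 6.58 in CA1 KO and 5.92 in CA1 control libraries. The order depends on the length used. With the longest transcript as the length, Sema7a and Sema6b were still first and second in both tissues. The control level of Nrp1 became 31.9 CPM per kilobase in the CA1, which was above Plxna1 at 25.5, and 8.70 in the neocortex, and that of Nrp2 became 10.4 in the CA1 and 2.72 in the neocortex. For Nrp1 this length was 3645 bases, against 9785 of summed exons. The annotated Nrp1 gene ends at 128503363 and the counted one at 128505462, so its rank by the longest transcript is uncertain. Among secreted ligands Sema3a then led in the neocortex, at 5.67 in controls against 5.22 for Sema3c, and Sema3b was the lowest CA1 member, at 0.76 against 0.825 for Sema3a. Levels were not tested between the tissues, whose kits and runs differed.

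**Figure D1:**
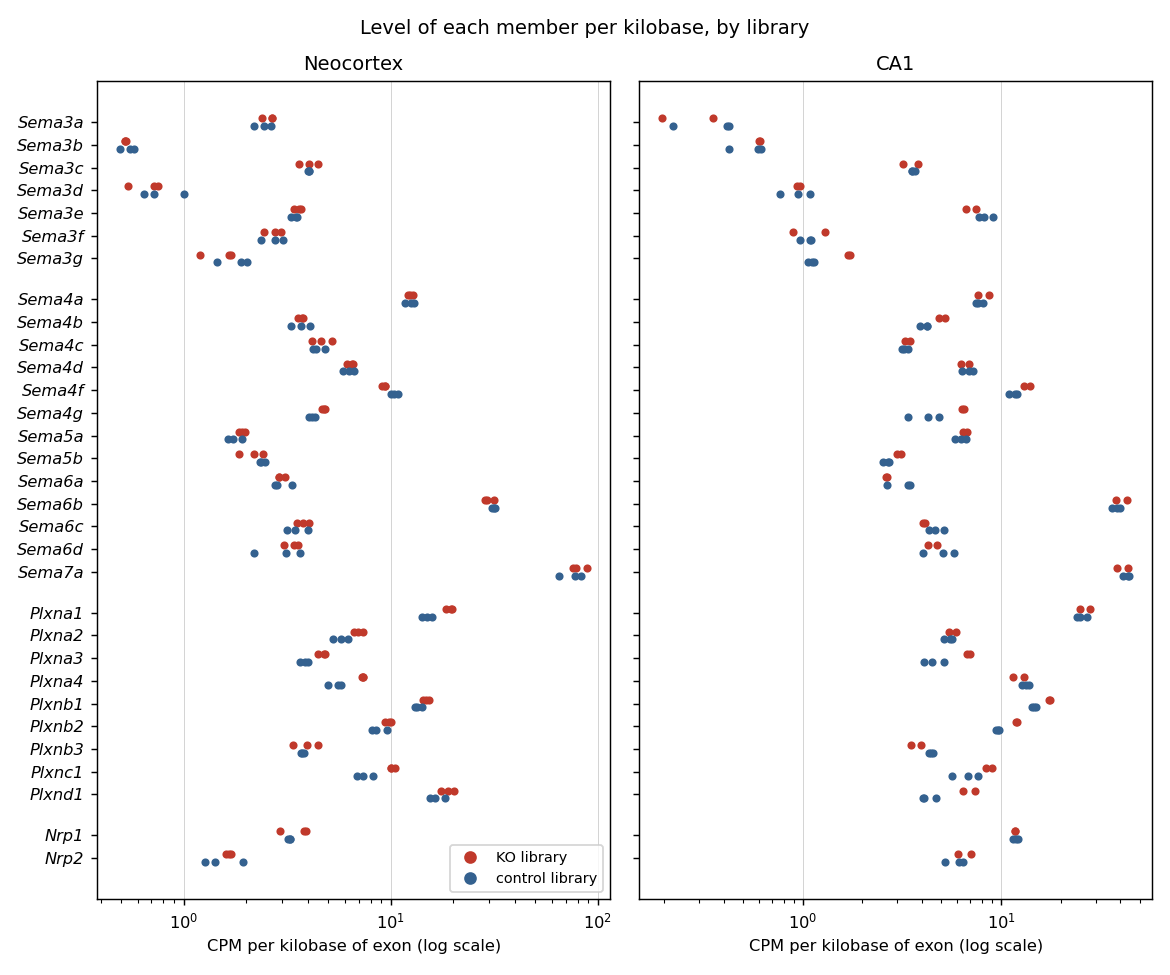
Level of each of the 31 members in CPM per kilobase of summed exon length (log axis), 1 point per KO (red) or control (blue) library, neocortex left and CA1 right. Sema7a was the highest member in both tissues, and Sema6b was second in both.

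In the neocortex, 5 of the 9 plexins rose, and neither neuropilin and no ligand passed the test. Of the 31 members, 5 rose and 0 fell (edgeR, adjusted over the 16971 genes tested), where 1.51% of all tested genes rose and 1.2% fell. The 5 were all plexins: the whole A group (Plxna1, Plxna2, Plxna3 and Plxna4), which serves class 3 and class 6 semaphorins, and Plxnc1, the receptor of Sema7a. DESeq2 called the same 5, where 922 of its 12364 tested genes passed, against 460 of 16971 in edgeR.

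Plxna4 (chromosome 6, 32145926 to 32588192) had 103.8, 102 and 103.8 CPM in KO neocortex (D5130, D5132, D5133), against 78.2, 70.3 and 81.5 CPM in control neocortex (D5129, D5134, D5135). The 3 KO values lay close together and above every control. Relative to controls it rose by 0.43 log2 (SE 0.061, edgeR adjusted p = 0.00602), a ratio of 1.35. Plxnc1 (chromosome 10, 94790866 to 94944578) had 84.1, 83.9 and 87.3 CPM in KO neocortex, against 68.5, 57.3 and 61.7 CPM in control neocortex. Again no control reached a KO library. It had the largest rise of the members in this tissue, 0.44 log2 (SE 0.067, edgeR adjusted p = 0.0076).

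Plxna1 (chromosome 6, 89316316 to 89362613), the most abundant of the A plexins here, was counted at 168, 178 and 179 CPM in KO libraries and at 136, 128 and 144 CPM in controls. It rose by 0.36 log2 (SE 0.056, edgeR adjusted p = 0.00784). Plxna2 (chromosome 1, 194619829 to 194814227), a receptor of Sema6a, was counted at 119.9, 115 and 127 CPM in KO libraries and at 106.5, 90.8 and 98.9 CPM in controls. Relative to its level the gap between its groups was the narrowest of the 5, between the KO library D5132 and the control D5129, with a rise of 0.29 log2 (SE 0.065, edgeR adjusted p = 0.0383). Plxna3 (X chromosome, 74329066 to 74343945), which works with Nrp2 in responses to Sema3f, was counted at 37.5, 35.3 and 38.1 CPM in KO libraries and at 30.4, 28.7 and 31.3 CPM in controls. It rose by 0.29 log2 (SE 0.067, edgeR adjusted p = 0.0391).

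**Figure D2:**
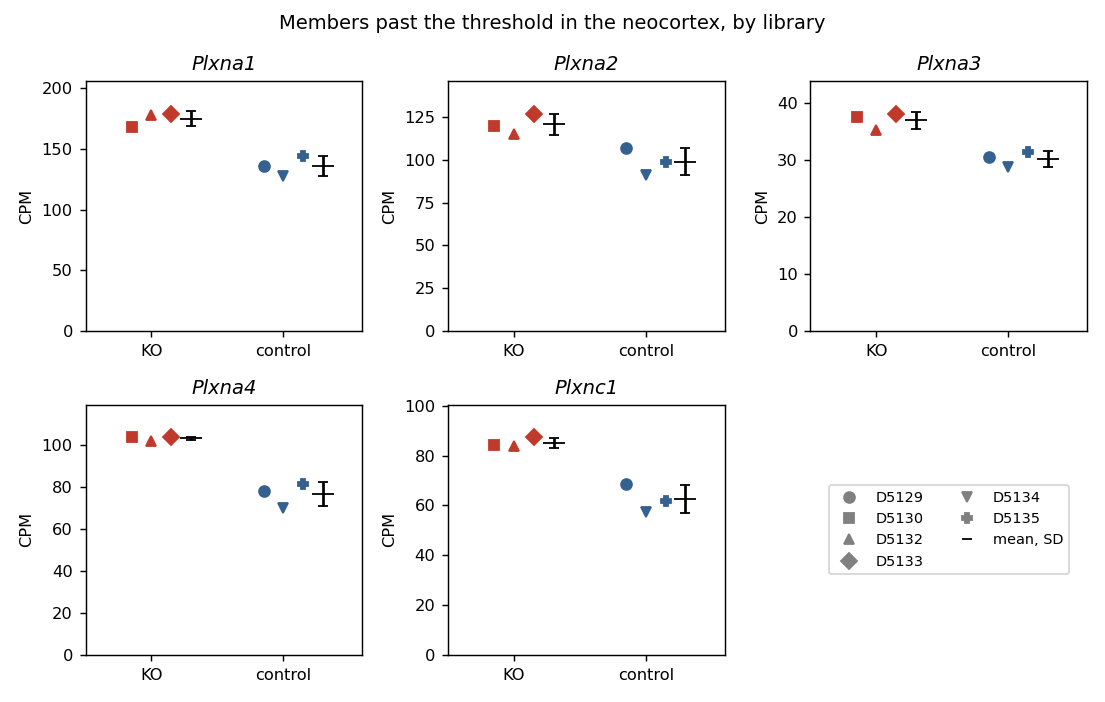
TMM-scaled CPM of the 5 members that passed the test in the neocortex, KO libraries (red) left of controls (blue), a symbol for each animal and the mean with SD in black. In all 5 panels the 3 KO libraries lie above the 3 controls, and for Plxna2 the lowest KO value, 115 CPM, comes near the highest control, 106.5 CPM.

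The other plexins and both neuropilins had positive log2 fold changes that did not pass. Plxnd1 was at 0.18 (SE 0.071, edgeR adjusted p = 0.21), Plxnb2, a receptor of class 4 ligands, at 0.16 (SE 0.068, edgeR adjusted p = 0.237), and Plxnb1, the receptor of Sema4d, at 0.13 (SE 0.053, edgeR adjusted p = 0.221). Plxnb3 was at 0.07, Nrp1 at 0.13 and Nrp2 at 0.10. All 11 receptors were thus above 0, with a median of 0.18, against 0.002 for all genes tested.

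For the 20 ligands the median was 0.01, with a range of -0.24 to 0.19 and 13 above 0. None passed with edgeR or with DESeq2, which gave no adjusted p for Sema3b. In edgeR 2 had an unadjusted p under 0.05, where 3049 of all 16971 genes tested did. The first was Sema4g, at 40.6, 41.5 and 41.9 CPM in KO libraries and 36.1, 34.8 and 37.4 CPM in controls, which do not overlap (log2 0.19, SE 0.061, edgeR adjusted p = 0.117). The second was Sema4f, at 48.3, 49.8 and 49.9 CPM in KO libraries and 53.1, 54.7 and 57.5 CPM in controls (log2 -0.16, SE 0.058, edgeR adjusted p = 0.172). The median of the 7 secreted ligands was 0.008, with adjusted p of at least 0.495, and that of the 13 membrane ligands 0.03. Every KO library lay above every control in 7 members, the 5 called plexins with Plxnb1 and Sema4g, and below in 1, Sema4f, where 11.6% and 12.4% of all tested genes did so. No test compared ligands with receptors as groups.

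The calls of Plxna2 and Plxna3 depended on several libraries. Without the KO library D5133, 0 members passed in edgeR, where 19 of all 17184 genes tested passed, against 460 with every library. The log2 fold changes of the 5 plexins were then 0.25 to 0.43, with adjusted p of 0.0612 to 0.232. An unadjusted p under 0.05 was reached by 8 members in that fit. With every library, 10 members and 3049 of all 16971 genes tested reached it. Plxna1, Plxna4 and Plxnc1 passed without any 1 of the other 5 libraries, D5134 among them, and with the spike-in set as a term in the fit. Within the sets Plxna4 was higher in KO by 0.40 log2 in set 1 and 0.45 in set 2, Plxna1 by 0.34 and 0.40, Plxnc1 by 0.29 and 0.55, Plxna3 by 0.26 and 0.34, and Plxna2 by 0.14 and 0.42. Since these 5 do not overlap between groups, a positive value in both sets was fixed in advance.

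In the CA1, 6 members rose and 0 fell of 31 (edgeR, adjusted over the 18274 genes tested), where 2.47% of all tested genes rose and 1.41% fell. They were the ligands Sema3g and Sema4g and the plexins Plxna3, Plxnb1, Plxnb2 and Plxnd1. Only Plxna3 passed in both tissues, and the 2 comparisons share animals.

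Plxnd1 (chromosome 6, 115954811 to 115995005), the Sema3e receptor known for its part in vessel patterning, had 54.1 and 46.8 CPM in KO CA1 (D5130, D5133), against 34.4, 29.6 and 30.0 CPM in control CA1 (D5134, D5135, D5138). Both KO values stood well above the controls, though they differed from each other by more than the controls did. The rise of 0.69 log2 was the largest among the 31 members (SE 0.092, edgeR adjusted p = 0.00111), a ratio of 1.61. Plxna3 was counted at 52.8 and 54.8 CPM in KO libraries and at 40.8, 35.3 and 32.3 CPM in controls. It rose by 0.58 log2 (SE 0.093, edgeR adjusted p = 0.0036), with no overlap.

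Plxnb2 (chromosome 15, 89155549 to 89171120) was counted at 91.7 and 92.6 CPM in KO libraries and at 75.0, 74.9 and 72.6 CPM in controls, a rise of 0.31 log2 (SE 0.063, edgeR adjusted p = 0.0135). Plxnb1 (chromosome 9, 109095436 to 109119911) was counted at 168 and 169 CPM in KO libraries and at 138, 144 and 139.9 CPM in controls, a rise of 0.26 log2 (SE 0.058, edgeR adjusted p = 0.0229). In both B plexins each group was tight and the groups lay apart. Plxnb1 shares 257 exon bases with the antisense gene Gm7628, counted at 0.792 CPM in these unstranded libraries.

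Sema4g (chromosome 19, 44989101 to 45003397), a membrane ligand that binds Plxnb2 in the mouse cerebellum, was counted at 56.7 and 55.0 CPM in KO libraries and at 42.0, 37.3 and 29.4 CPM in controls. The female control D5138 was the lowest of the 5 libraries, and the groups did not overlap. It rose by 0.63 log2 (SE 0.122, edgeR adjusted p = 0.0198). Sema3g (chromosome 14, 31217860 to 31230350), a secreted ligand made by vessel cells, was counted at 7.89 and 7.69 CPM in KO libraries and at 4.84, 5.19 and 5.06 CPM in controls. It also rose by 0.63 log2 (SE 0.145, edgeR adjusted p = 0.0272) and had the fewest reads of the 6.

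**Figure D3:**
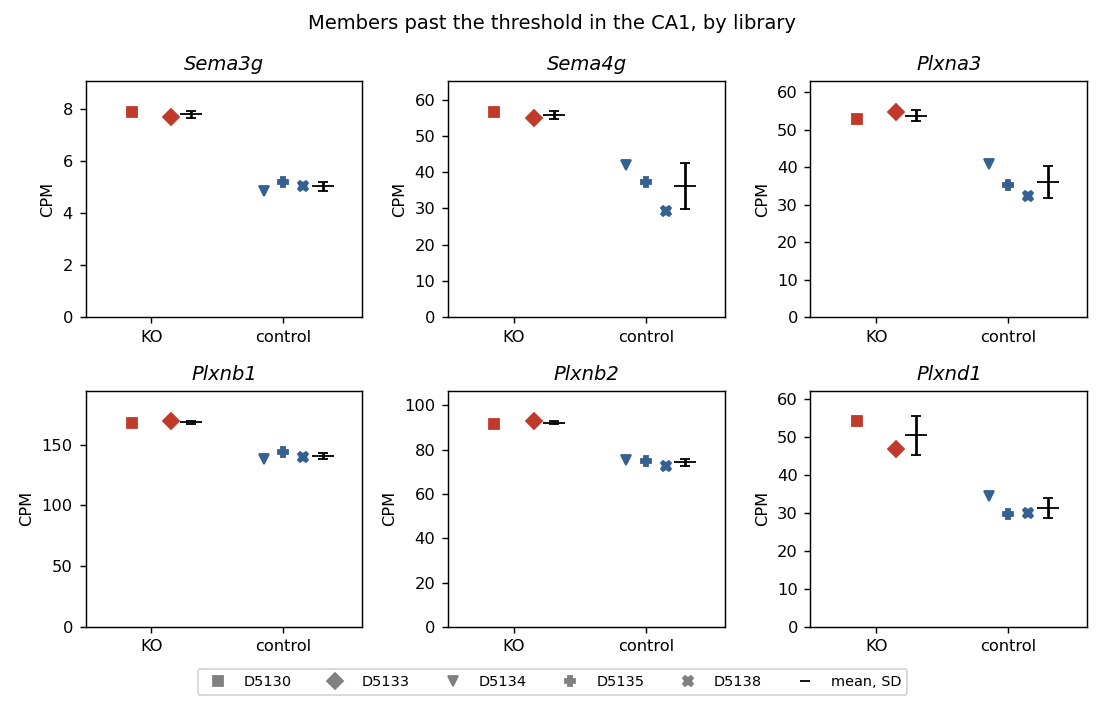
TMM-scaled CPM of the 6 members that passed the test in the CA1, the 2 KO libraries (red) left of the 3 controls (blue), a symbol for each animal and the mean with SD in black. KO and control libraries do not overlap in any panel, and the control spread is widest for Sema4g.

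Of the remaining receptors in the CA1, Plxnc1 was counted at 69.9 and 74.8 CPM in KO libraries and at 64.2, 56.9 and 47.5 CPM in controls, a difference of 0.37 log2 that missed the threshold (SE 0.106, edgeR adjusted p = 0.0882) and passed with DESeq2. Plxnb3, which is expressed by oligodendrocytes, stood at -0.25 (SE 0.09, edgeR adjusted p = 0.154). Plxna1 and Plxna2 were at 0.06 each, Nrp1 at -0.007 and Nrp2 at 0.15. The median of the 11 receptors was 0.15, with 8 above 0. The 20 ligands had a median of 0.06 and spread further than in the neocortex, from -0.34 for the scarce Sema3a to 0.63, with 12 above 0. Sema4b was at 0.30 (SE 0.089, edgeR adjusted p = 0.0841), Sema4f at 0.22 (SE 0.072, edgeR adjusted p = 0.12), Sema6a at -0.27 (SE 0.112, edgeR adjusted p = 0.22) and Sema3e at -0.24 (SE 0.081, edgeR adjusted p = 0.125). Both KO libraries lay above every control in 10 members (the 6 called ones with Plxnc1, Sema4b, Sema4f and Sema5b) and below in 4 (Sema3e, Sema6a, Sema6c and Plxnb3), where 17.4% and 16.3% of all tested genes did so.

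Here too the calls depended on the libraries. Plxnd1 alone passed without any 1 of the 5 libraries, with a log2 fold change of 0.58 to 0.78. Without the KO library D5133, which carried Xist reads, it was the 1 member to pass, where 232 of all 18852 genes tested did, and the log2 fold changes of the other 5 were 0.25 to 0.64 with adjusted p of 0.0536 to 0.152. Without D5130, Plxna3, Plxnb2 and Plxnd1 passed. Without the female D5138, Sema4g, Plxna3 and Plxnd1 passed, and Sema4g was then at 0.49 log2 (edgeR adjusted p = 0.0254). Without D5134, Sema3g and Plxnb1 were lost, with adjusted p of 0.0525 and 0.0546, while Plxnc1 was called higher and Sema6a lower.

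**Figure D4:**
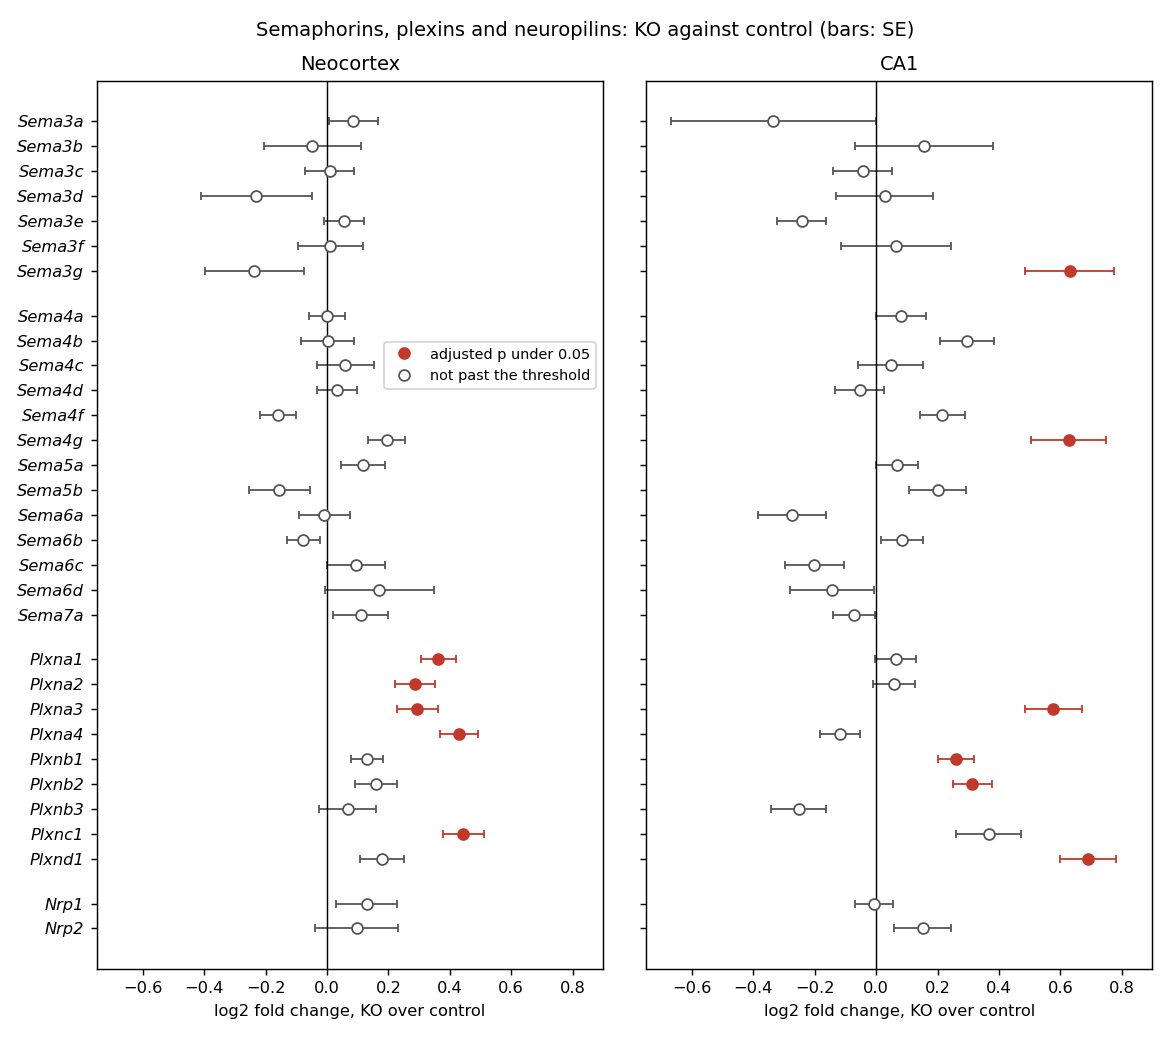
Log2 fold change, KO over control, of the 31 members in the neocortex (left) and the CA1 (right), with SE as bars, ordered as secreted semaphorins, membrane semaphorins, plexins and neuropilins. Filled red points passed an adjusted p of 0.05 in edgeR: 5 plexins in the neocortex, and 2 semaphorins and 4 plexins in the CA1.

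Whether the KO effect differed between the tissues was tested directly, as the CA1 effect minus the neocortex effect in 1 fit of the 11 libraries. Of the 31 members 1 passed, where 0.0935% of the 19256 genes tested did. This was Plxna4, whose KO effect was lower in the CA1 than in the neocortex by 0.55 log2 (SE 0.092, edgeR adjusted p = 0.0313). KO CA1 libraries had 163 and 184 CPM of Plxna4, against 181, 188 and 195 CPM in control CA1, a KO effect of -0.12 log2 (SE 0.066, edgeR adjusted p = 0.393). There 1 KO library lay within the control range and 1 below it, whereas in the neocortex all 3 lay above the controls. With the animal as a block, since 4 animals gave both tissues, the difference was -0.57 (SE 0.094, edgeR adjusted p = 0.0075). Leaving out single libraries gave -0.65 to -0.50, with edgeR adjusted p of 0.0225 to 0.116, and 6 of the 11 such fits lost the call. With only the 4 animals that gave both tissues the adjusted p was 0.243. Plxna4 shares 110 exon bases with the antisense Plxna4os3, counted at 1.46 CPM in the unstranded CA1 libraries.

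For the other A plexins the difference did not pass: Plxna1 was at -0.30 (SE 0.091, edgeR adjusted p = 0.274), Plxna2 at -0.23 (SE 0.099, edgeR adjusted p = 0.469) and Plxna3 at 0.28 (SE 0.117, edgeR adjusted p = 0.441). The members called in the CA1 and not in the neocortex likewise had no difference past the threshold. Among them Plxnd1 was at 0.51 (SE 0.121, edgeR adjusted p = 0.163), Sema3g at 0.87 (SE 0.228, edgeR adjusted p = 0.182) and Sema4g at 0.43 (SE 0.139, edgeR adjusted p = 0.304). Sema4f, with its sign differing between the tissues, was at 0.38 (SE 0.09, edgeR adjusted p = 0.163). DESeq2 called Plxna4, Plxnd1 and Sema4f. Tissue, kit and sequencing run change together here, so they cannot be told apart in these differences.

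**Figure D5:**
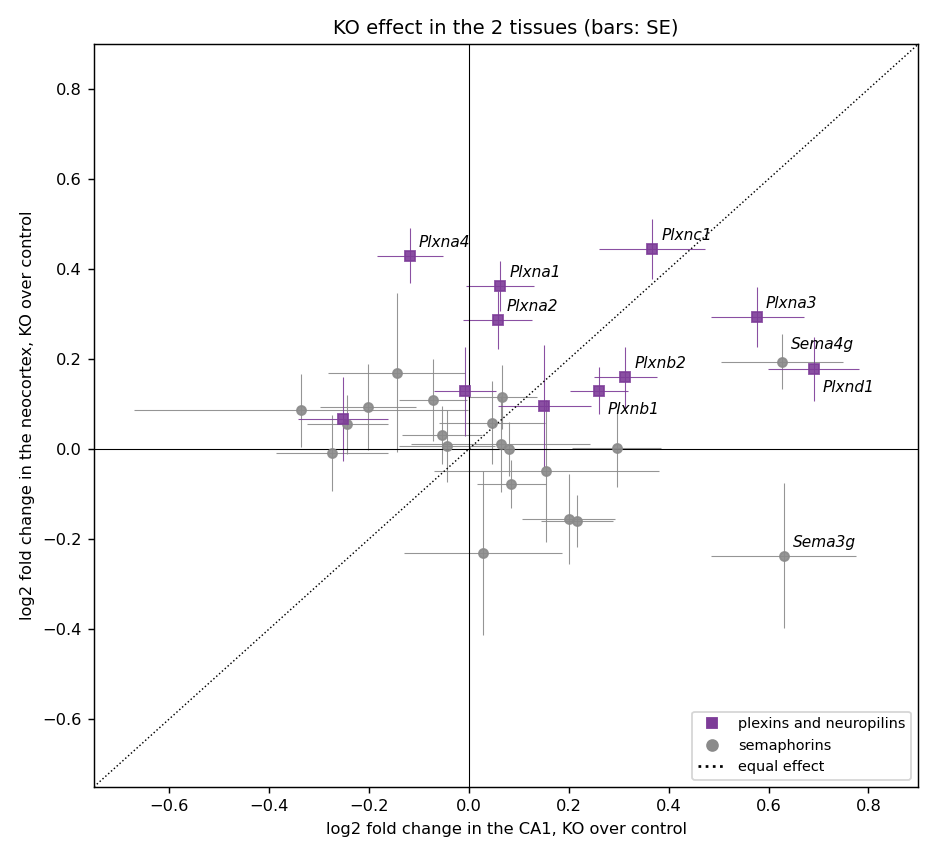
KO effect of each member in the CA1 (horizontal) against the neocortex (vertical), as log2 fold change with SE bars, receptors as purple squares and ligands as grey circles; 4 animals gave both tissues. Plxna4, at 0.43 in the neocortex and -0.12 in the CA1, was the 1 member whose distance from the dotted line of equal effect passed the test.

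Matches to miRNA seeds were set beside the fold changes as a description. In the neocortex the 8 receptors with an 8mer had a median log2 fold change of 0.23 and the 3 without one 0.13, against 0.02 for the 7502 tested genes with an 8mer and -0.02 for the 7225 without. Nrp1, 1 of the 3 receptors without an 8mer, had only 549 bases searched. The 14 ligands with an 8mer had a median of 0.04 and the 6 without one 0.004. In the CA1 the receptors with an 8mer stood at 0.21 and those without at -0.007, the ligands at 0.04 with and 0.07 without, and all tested genes at -0.005 with and 0.006 without. These groups count 8mers only, and the 3 receptors without one each held 1 stretch that matched a seed without the A. Plxna3, with no 8mer of these families, rose in both tissues, and Sema6d, with 7 matches, the most of any member, did not pass in either. The Sema6d matches lay beyond the counted end of that gene (chromosome 2, 124665309), and 1 stretch was counted for both miR-128 and miR-27a.

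Partners of the system were examined as lists. Of 18 genes listed as co-receptors or other ligands of these receptors, 3 rose and 0 fell in the neocortex. Itgb1, the integrin chain through which Sema7a can act, rose by 0.40 (SE 0.07, edgeR adjusted p = 0.0129) there and by 0.48 (SE 0.088, edgeR adjusted p = 0.0084) in the CA1. Tyrobp and Trem2, microglial proteins that can associate with Plxna1 in mouse immune cells, rose by 0.64 and 0.46 in the neocortex (edgeR adjusted p = 0.00875 and 0.0391). Both genes are also on the activated microglia list below, so they are counted in each list in both tissues. In the CA1, 5 rose and 1 fell. Tyrobp rose by 1.39, Trem2 by 1.02 and L1cam, an adhesion molecule that joins neuropilin complexes, by 0.35 (edgeR adjusted p = 0.011, 0.000157 and 0.00835). Havcr2, whose link to these receptors was not examined here, rose by 0.87 (edgeR adjusted p = 0.0295). Vegfa, the growth factor that shares neuropilins with the semaphorins, fell by 0.56 (edgeR adjusted p = 0.00446).

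Of 37 intracellular signalling genes, 0 rose and 1 fell in the neocortex (edgeR; Sh3bp1, a GTPase-activating protein in plexin complexes, -0.24, adjusted p = 0.0342). In the CA1, 2 rose and 1 fell. Dpysl2, which encodes the semaphorin mediator CRMP2, rose by 0.28 (edgeR adjusted p = 0.0481), the kinase gene Fes by 0.85 (edgeR adjusted p = 0.0187), and the kinase gene Pak1 changed by -0.30 (edgeR adjusted p = 0.0086). The list medians were 0.02 in the neocortex and -0.006 in the CA1, close to those of all genes.

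Cell type markers moved with the genotype as well, and their part in the members' changes was not tested. No marker in these lists was at 0 reads in every library. Of 15 activated microglia genes, 10 rose in the neocortex, with summed levels of 1866 to 2113 CPM in KO and 1569 to 1769 in control libraries. In the CA1 11 rose, with 2308 to 2514 CPM in KO and 1603 to 1714 in control libraries. Most of these sums was Apoe, at 1321 CPM in KO and 1096 in control neocortex, where it was not called (edgeR adjusted p = 0.0508). In the CA1 Apoe was at 1684 CPM in KO and 1175 in control libraries. The median log2 fold change of the 15 genes was 0.5 in the neocortex and 1.02 in the CA1. Of 7 excitatory neuron genes, 2 fell in each tissue, and the sums were 4851 to 4963 CPM in KO and 5582 to 5663 in control neocortex, and 4571 to 5011 in KO and 5112 to 5739 in control CA1. The endothelial list summed to 179 to 181 CPM in KO and 158 to 177 in control CA1, with 1 of 9 higher (Pecam1). In the neocortex it summed to 209 to 215 CPM in KO and 217 to 246 in control libraries, with 0 of 9 called (edgeR). The mural list summed to 181 to 195 CPM in KO and 138 to 150.5 in control CA1, with 3 of 7 higher (Acta2, Myh11 and Tagln).

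In the CA1, 7 of 8 oligodendrocyte genes fell, with sums of 2861 to 2879 CPM in KO and 3461 to 4207 in control libraries. There 3 of 9 meningeal genes rose, with sums of 558 to 945 CPM in KO and 266 to 373 in control libraries. On average most of the meningeal sum was Ptgds, at 532 CPM in KO and 227 in control libraries, which was not called (edgeR adjusted p = 0.317). The median log2 fold change of the 9 was 1.12. Astrocyte sums were 2888 to 3108 CPM in KO and 2368 to 2459 in control CA1, with 2 of 8 higher (Gfap and Aqp4). Gfap alone was at 710 CPM in KO and 364 in control CA1, and the median log2 fold change of the 8 there was 0.165. In the neocortex the astrocyte sums were 2395 to 2693 CPM in KO and 2280 to 2356 in control libraries, with 0 of 8 called (edgeR). Homeostatic microglia sums were 365 to 427 CPM in KO and 324 to 344 in control CA1, with 3 of 9 higher. Oligodendrocyte precursor sums were 329.6 to 363 CPM in KO and 411 to 447.5 in control CA1, with 1 of 7 lower (Bcas1). Interneuron sums in the neocortex were 1228 to 1276 CPM in KO and 1166 to 1187 in control libraries, with 0 of 7 called (edgeR). The CA1 dissection held its own markers, with the pyramidal list at 383 to 403 CPM in KO and 507 to 561 in control libraries and 2 of 6 lower (Wfs1 and Pou3f1). It also held dentate and CA3 genes, at 341 to 374 CPM in KO and 320 to 381 in control libraries, with 0 of 8 called (edgeR). In the neocortex, striatal genes summed to 150 to 159 CPM in KO and 191 to 235 in control libraries, with 3 of 7 lower. Layer markers there summed to 551 to 605 CPM in KO and 637 to 684 in control libraries, with 0 of 7 called (edgeR). Most of that gap lay in Lamp5, at 236.5 CPM in KO and 309 in control libraries, and the median log2 fold change of the 7 was -0.009.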

How the data were processed

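The values are read counts per Ensembl gene, used as deposited with no normalization applied, and made by the authors with FastQC, GSNAP, SAMtools and bedtools on GRCm38, per the submitters' processing notes. Versions, the counting rule and its strand setting are not given in the sources used here. Per the labels' protocols, polyadenylated RNA went into a stranded kit with ERCC spike-ins for the neocortex and an unstranded kit for the CA1, so reads of antisense genes cannot be told apart in the CA1. Levels per kilobase use the summed exon length, with the longest transcript as the alternative. Symbols, exon lengths and 3′ UTRs came from GENCODE M21 (37693 of 39017 identifiers matched, 96.6%).

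The members, lists and miRNA families were chosen with earlier results of these data known. KO was set against control inside 1 tissue at a time by edgeR 4.0.16 under R 4.3.3 (TMM scaling, filterByExpr, robust quasi-likelihood F-test, two-sided), on the whole table, with Benjamini-Hochberg adjusted p over all genes tested and a threshold of 0.05. The fit was tested on simulated data with known fold changes. The SE is the absolute log2 fold change divided by the square root of F. Replicates are separate animals. DESeq2 1.42.0, other scalings and filters, and fits without single libraries were alternatives. For each library, the read total limits the counting error of scarce members such as Sema3b and Sema3g.

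The text names every member called in a test library by library, the 2 members of each role group highest per kilobase in each tissue, and up to 4 called genes per list. Havcr2, the list genes Apoe, Lamp5 and Ptgds and, in the CA1, Tyrobp are named beyond that limit, after their values were seen. Other members, picked after their values were seen, are given where a count or a pattern is broken down.

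The animals pair the tissues by their labels. The deviations from group means of an animal's 2 libraries correlated across genes with r of 0.14, 0.143, 0.18 and 0.217 for D5130, D5133, D5134 and D5135, so the animal was fitted as a replicate block in an alternative.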

Additional observations from a re-analysis of the deposited data

Results flagged for a closer look

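The effect of the knockout on Plxna4 differed between the tissues, by a direct test of the difference. Several fits without a single library, and the fit of only the 4 animals that gave both tissues, lost this call. Tissue, kit and sequencing run change together and cannot be told apart in it. The CA1 effect minus the neocortex effect was -0.547 on the log2 scale (SE 0.092, edgeR adjusted p = 0.0313). Plxna4 averaged 173 CPM in KO and 188 CPM in control CA1, and 103 CPM in KO and 76.7 CPM in control neocortex. No group of this series has 4 or more libraries, so single libraries were not screened for outlying values.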

How the results depend on the processing

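In the neocortex the 5 called plexins were the same under size factors (RLE), DESeq2, no filter on low counts and a mean of at least 1 CPM. Of all genes, DESeq2 called 922 and no filter 770, against 460 in the main test. Leaving out single libraries gave 0 to 4 calls in edgeR. Without the KO library D5133 there were 0, with 19 of all genes called. In that fit 8 members had an unadjusted p under 0.05, against 10 members and 3049 of all 16971 genes with every library. Over the fits without single libraries the ligand median was -0.002 to 0.053 and the receptor median 0.127 to 0.288. The spike-in set as a term gave 3 calls. Scaling by ERCC reads moved the median of all genes to 1.06, the ligand median to 1.072 and the receptor median to 1.279. It gave 0 calls in edgeR, with 4 of all genes called, and 2 members had an unadjusted p under 0.05. The share of ERCC reads was 0.113% to 0.268% in KO and 0.189% to 0.686% in control neocortex libraries. These ranges overlap, and the control range is wide. In the CA1, leaving out single libraries gave 1 to 6 calls, with ligand medians of 0.018 to 0.066 and receptor medians of 0.032 to 0.259, DESeq2 gave 7 calls (924 of all genes) and no filter 8 (1467 of all genes, against 710 in the main test). For the difference between tissues, DESeq2 gave 3 calls (159 of all genes), no filter 4 (237 of all genes, against 18 in the main test), leaving out single libraries 0 to 1, and only the 4 animals with both tissues 0 (edgeR, 11 members at an unadjusted p under 0.05, 0 of all genes called). In the main test of this difference, 13 members and 1831 of all 19256 genes tested had an unadjusted p under 0.05 (edgeR). The animal as a replicate block gave 1 call, Plxna4 (171 of all genes). The cause of these shifts was not tested, and fits without a library rest on fewer samples. Of 142 alternative values for members called in the main tests, 99 stayed past the threshold, 43 lost it and 0 turned direction. With 2 KO libraries in the CA1, a fit without one assumes that the lone library varies like the controls.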
